A study of Mus musculus with 10 samples.

Results

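Enzymes that hydroxylate, sulfate, desulfate or oxidize estrogens were followed in whole oviducts of mice without a working progesterone receptor. The set listed 9 genes: the cytochrome P450 genes Cyp1b1 and Cyp1a1, the sulfotransferase genes Sult1a1, Sult1d1 and Sult1e1, the steroid sulfatase gene Sts, and the 17beta-hydroxysteroid dehydrogenase genes Hsd17b2, Hsd17b4 and Hsd17b11. Of these, 8 were measured, out of 19938 named genes tested, and Sts was not analysed here. Each was read by a single probe set paired with its symbol alone, so the rule that a gene's probe set is chosen by the highest mean over the 10 arrays never had to decide. The genes themselves were selected on what they do, with earlier results of these data known, including the falls of Cyp1b1 and Sult1a1, so counts over the set describe it and lend no independent support.

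The PRKO animals were homozygous for a lacZ insertion in the progesterone receptor gene Pgr (the PRlacZ knock-in), which disrupts both receptor isoforms in every cell. The PR+/- controls were heterozygous for the same insertion, so they also carry a disrupted copy and are not wild type, although they are fertile. All were prepubertal, 21 to 23 days old at the start, and all received 5 IU of equine chorionic gonadotropin (eCG), which stimulates follicle growth, and 44 to 47 h later 5 IU of human chorionic gonadotropin (hCG), the trigger of ovulation. Collection followed 8 h later, and each array holds the pooled oviducts of 3 animals, giving 5 PRKO and 5 PR+/- pools on Affymetrix whole-transcript arrays. No pool was taken before hCG.

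As background, estradiol is removed in target tissues by several routes. Cytochrome P450 enzymes add a hydroxyl group to its rings, forming catechol estrogens, which can then be methylated. Sulfotransferases attach sulfate, which prevents binding to the estrogen receptor, and steroid sulfatase takes the sulfate off again. Oxidizing 17beta-hydroxysteroid dehydrogenases turn estradiol into the weaker estrone. In the uterus, progesterone is known to raise estradiol oxidation and sulfation, which lowers the local action of estrogen.

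The array values are taken as log2 signals, a scale inferred from their range. Genotypes were compared with limma over all 19938 genes, with Benjamini-Hochberg adjustment. The threshold for a call was an adjusted p of 0.05. Values after ± are the SE of a log2 difference, PRKO minus PR+/-, unless SD is stated. Pgr itself had log2 signals of 6.31 to 6.39 on PRKO arrays and 7.27 to 7.55 on PR+/- arrays. The median SD of a gene was 0.167 in PRKO and 0.113 in PR+/-. The oviduct epithelial markers Pax8, Foxj1 and Pax2 had a summed log2 signal of 8.86 to 9.30 in PRKO and 9.11 to 9.23 in PR+/-, and 0 of the 3 were called in limma (0 also at an unadjusted p under 0.05). Cyp11a1, the ovarian enzyme that starts steroid synthesis, stood apart on PRKO replicate 3 (7.10) and PR+/- replicate 4 (7.04), against 3.05 to 4.68 on the other 8 arrays. The number of arrays limits the precision, and in whole tissue fewer cells of a type and less RNA per cell cannot be told apart.

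In PRKO oviducts 1 hydroxylating and 2 sulfating enzymes of the set fell, while no oxidizing dehydrogenase of the set passed the test. Cyp1b1 was 3.43-fold lower, Sult1a1 2.53-fold lower and Sult1d1 1.89-fold lower. Of the 8 measured genes 3 fell and 0 rose by limma, where 3.87% of all genes fell and 1.09% rose (988 of 19938 called, 4.96%). At an unadjusted p under 0.05, 3 were lower and 2 higher. The median log2 difference of the 8 was -0.018, against 0.03 over all genes. Values of the 2 genotypes did not overlap for 4 of the 8, the 3 that fell and Hsd17b11, where 7.20% of all genes did not overlap (5.06% lower and 2.15% higher in PRKO).

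**Figure D1:**
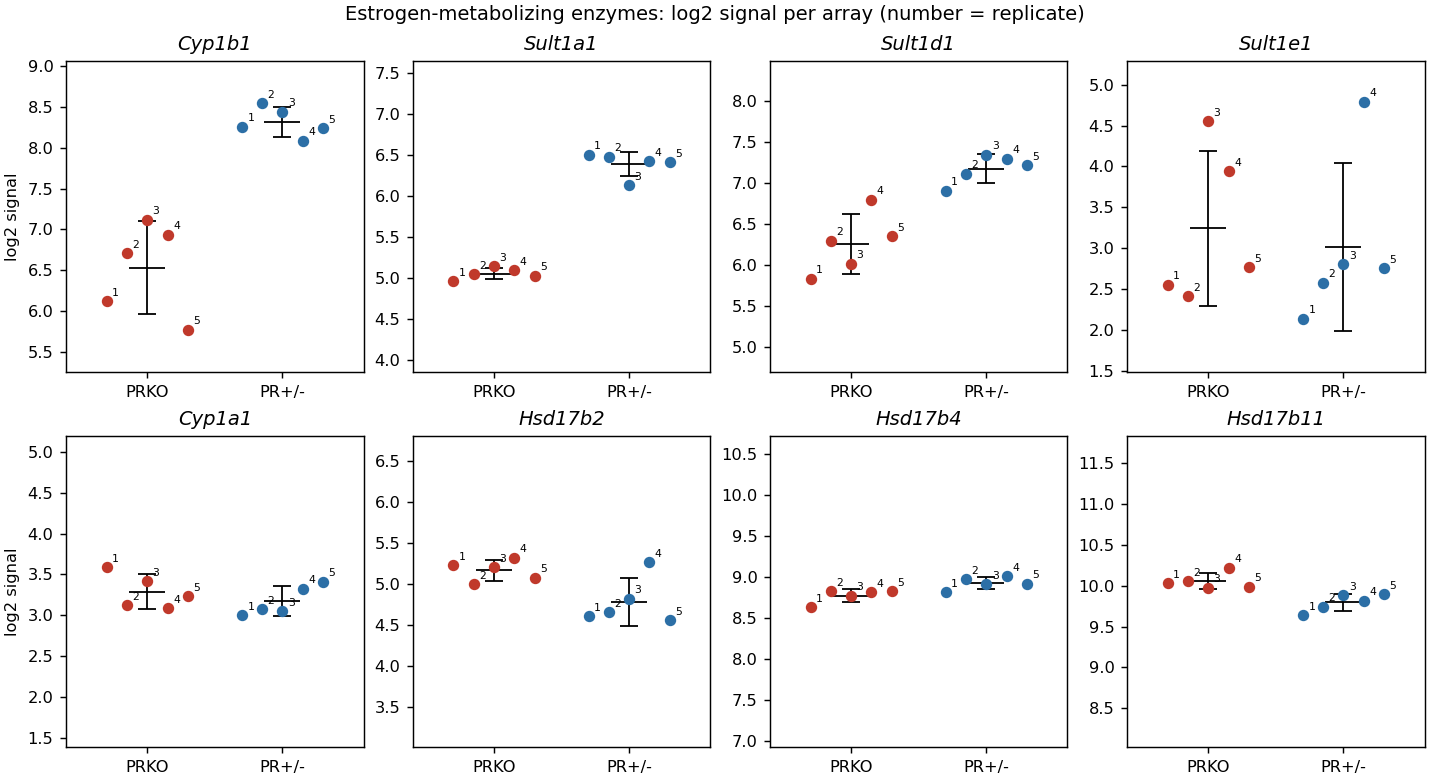
Log2 signal of the 8 measured enzyme genes on each array, PRKO left and PR+/- right, with all panels spanning the same height; points are pools numbered by replicate, the long bar is the mean and the whiskers are SD (n = 5 each). PRKO points lie below all PR+/- points for Cyp1b1, Sult1a1 and Sult1d1, and above them for Hsd17b11.

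Cyp1b1 encodes a cytochrome P450 outside the liver that, in its human form, hydroxylates estradiol on the A ring. Its log2 signals were 6.12, 6.71, 7.12, 6.93 and 5.77 in PRKO replicates 1 to 5, against 8.25, 8.54, 8.44, 8.08 and 8.23 in PR+/- replicates 1 to 5. Every PRKO pool lay below every PR+/- pool, and replicates 5 and 1 were the lowest. The log2 difference was -1.78 ± 0.21 (limma adjusted p = 1.40e-04, n = 5 each), with a 95% interval of -2.23 to -1.33. PRKO pools held 29.2% of the PR+/- signal.

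The spread of Cyp1b1 was wider among PRKO pools, with an SD of 0.567 against 0.182 in PR+/-. Overall contrast of an array, taken as the interquartile range of its log2 signals, was 3.30, 3.42, 3.27, 3.36 and 3.13 on PRKO arrays 1 to 5 and 3.37 to 3.48 on PR+/- arrays. PRKO replicate 5 had both the lowest range and the lowest Cyp1b1, while replicate 3 had the next lowest range and the highest Cyp1b1 of its genotype. Fitting this range as a covariate gave a log2 difference of -1.35 ± 0.24, still called (limma adjusted p = 0.0127). Without PRKO replicates 1 and 5 it was -1.39 (limma adjusted p = 6.18e-05).

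Cyp1a1, the relative of Cyp1b1 that is induced through the aryl hydrocarbon receptor and also hydroxylates estradiol, did not pass the test. Its signals were 3.59, 3.13, 3.42, 3.09 and 3.23 in PRKO pools and 3.00, 3.08, 3.05, 3.33 and 3.41 in PR+/- pools. The ranges overlapped in part: PRKO replicates 1 and 3 lay above every PR+/- pool, and PR+/- replicates 1 to 3 below every PRKO pool. The genotypes had a log2 difference of 0.12 ± 0.11, with an interval of -0.12 to 0.35 (limma adjusted p = 0.575). These signals lie among the dimmest 30% of genes, where an array understates a change. Cyp1a2, the neighbouring gene of the same family, had mean signals of 2.60 in PRKO and 2.49 in PR+/- and was not called.

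Sult1a1 encodes the phenol sulfotransferase, which sulfates small phenols and, less readily, estrogens. Its log2 signals were 4.96, 5.05, 5.14, 5.09 and 5.02 in PRKO pools, against 6.51, 6.48, 6.13, 6.43 and 6.41 in PR+/- pools. The PRKO pools were tightly grouped (SD 0.0683), and all lay about a full log2 unit or more below the lowest PR+/- pool, replicate 3. Its log2 difference was -1.34 ± 0.082, with an interval of -1.52 to -1.16 (limma adjusted p = 6.34e-07). PRKO pools held 39.5% of the PR+/- signal. Fitted with the array's contrast as a covariate, it was -1.31.

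Sult1d1 encodes a sulfotransferase known in rodents to act on catecholamines and other phenols. Its signals were 5.83, 6.30, 6.02, 6.80 and 6.35 in PRKO pools and 6.91, 7.11, 7.35, 7.30 and 7.22 in PR+/- pools. The groups did not overlap, but PRKO replicate 4 came close to PR+/- replicate 1. The log2 difference was -0.92 ± 0.15, with an interval of -1.24 to -0.60 (limma adjusted p = 0.00216), so that PRKO pools held 52.9% of the PR+/- signal. With array contrast as a covariate it was -0.90 ± 0.21 and no longer called (limma adjusted p = 0.0567).

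Sult1e1 encodes the estrogen sulfotransferase proper, which sulfates estradiol at very low concentrations. Its signals were 2.55, 2.41, 4.55, 3.94 and 2.77 in PRKO pools and 2.14, 2.58, 2.80, 4.79 and 2.75 in PR+/- pools. PRKO replicates 3 and 4 and PR+/- replicate 4 were high, and the genotypes overlapped over nearly their whole range. These values give a log2 difference of 0.23 ± 0.48 (limma adjusted p = 0.807), with an interval from -0.79 to 1.25. By its mean signal Sult1e1 lies among the dimmest 30% of genes, where an array understates a change.

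The 3 pools high in Sult1e1 were also the 3 highest in Cyp11a1. Cyp11a1 read 7.10 in PRKO replicate 3, 4.68 in PRKO replicate 4 and 7.04 in PR+/- replicate 4. PRKO replicate 5 was close behind PRKO replicate 4 in Cyp11a1, at 4.48, but its Sult1e1 signal was 2.77. Hsd3b1, another steroidogenic enzyme of the ovary, read 4.30, 3.30 and 4.17 in the same pools, and no more than 2.98 in the others. Inha, also an ovarian marker, read 7.63, 5.97 and 7.20 there, and no more than 5.69 in the others. Of the 9 measured ovarian markers, only Cyp11a1, Hsd3b1 and Inha were highest in these pools. Star and Inhba were highest of their genotype in PRKO replicate 3 and in PR+/- replicate 4. In PRKO replicate 4, however, Cyp17a1 (3.08), Fshr (3.19) and Inhba (3.90) were the lowest of their genotype. Star read 4.67 in PRKO replicate 4, below 5.04 in PRKO replicate 5. Foxl2 was lowest of its genotype in PRKO replicate 3 (5.06) and in PR+/- replicate 4 (5.23). None of the 9 measured ovarian markers was called (at an unadjusted p under 0.05, 1 was higher and 0 lower), and their summed signal, in log2, was 7.43 to 9.00 in PRKO and 7.46 to 8.92 in PR+/-. Without PRKO replicate 3 and PR+/- replicate 4 the log2 difference of Sult1e1 was 0.35, still not called (limma adjusted p = 0.567). Left out singly, PR+/- replicate 4 gave 0.68 and PRKO replicate 3 gave -0.10. The part of ovarian RNA in the Sult1e1 signal was not tested.

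**Figure D2:**
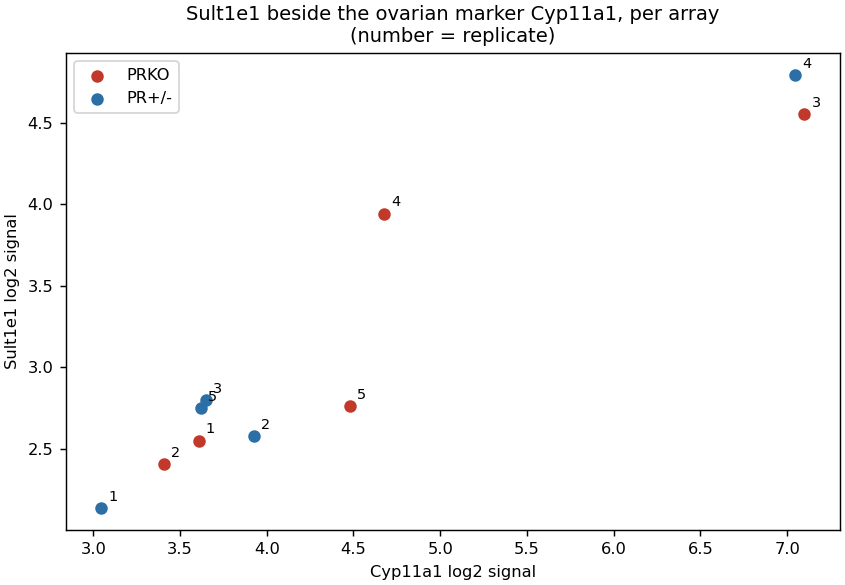
Log2 signal of Sult1e1 (vertical) against that of the ovarian marker Cyp11a1 (horizontal) on each of the 10 arrays, in red for PRKO and blue for PR+/-, numbered by replicate. PRKO replicate 3 and PR+/- replicate 4 lie far right at 7.10 and 7.04 and have the highest Sult1e1 signals, 4.55 and 4.79.

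The oxidizing dehydrogenases of the set shifted little, and none passed the test. Hsd17b2 encodes the enzyme that oxidizes estradiol to estrone. Its signals were 5.23, 5.00, 5.20, 5.33 and 5.08 in PRKO pools and 4.61, 4.65, 4.82, 5.27 and 4.56 in PR+/- pools. The PRKO values lay above 4 of the 5 PR+/- pools, and the overlap came from PR+/- replicate 4 alone. The genotypes had a log2 difference of 0.39 ± 0.12, with an interval of 0.12 to 0.65 (limma adjusted p = 0.0903). Without PR+/- replicate 4, one of the pools highest in Cyp11a1, it was 0.51 and was called (limma adjusted p = 0.00698). Without that pool and PRKO replicate 3 it was 0.50 and also called (limma adjusted p = 0.0187). As PR+/- replicate 4 was the highest PR+/- pool, leaving it out had to raise the difference. In PRKO replicate 3, highest in Cyp11a1, the Hsd17b2 signal of 5.20 was the median of its genotype. The part of ovarian RNA in the Hsd17b2 signal was not tested.

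Hsd17b11 encodes a dehydrogenase of lipid droplets that acts on androgen metabolites. It read 10.03, 10.06, 9.97, 10.22 and 9.99 in PRKO pools and 9.64, 9.74, 9.88, 9.82 and 9.89 in PR+/- pools. The genotypes did not overlap, yet the gap was small. The log2 difference was 0.26 ± 0.078, with an interval of 0.09 to 0.43 (limma adjusted p = 0.0739). Its call depended on the processing: quantile normalization gave 0.35 (limma adjusted p = 0.0200) and removal of the dimmest 30% of genes, which leaves the value as it is, gave a limma adjusted p of 0.0469.

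Hsd17b4 encodes a peroxisomal enzyme of fatty acid breakdown that can also oxidize estradiol. It read 8.63, 8.82, 8.77, 8.81 and 8.82 in PRKO pools and 8.81, 8.97, 8.91, 9.01 and 8.92 in PR+/- pools. Only PR+/- replicate 1 fell within the PRKO range. PRKO minus PR+/-, the log2 difference was -0.15 ± 0.071, with an interval of -0.30 to 0.0012 (limma adjusted p = 0.240).

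**Figure D3:**
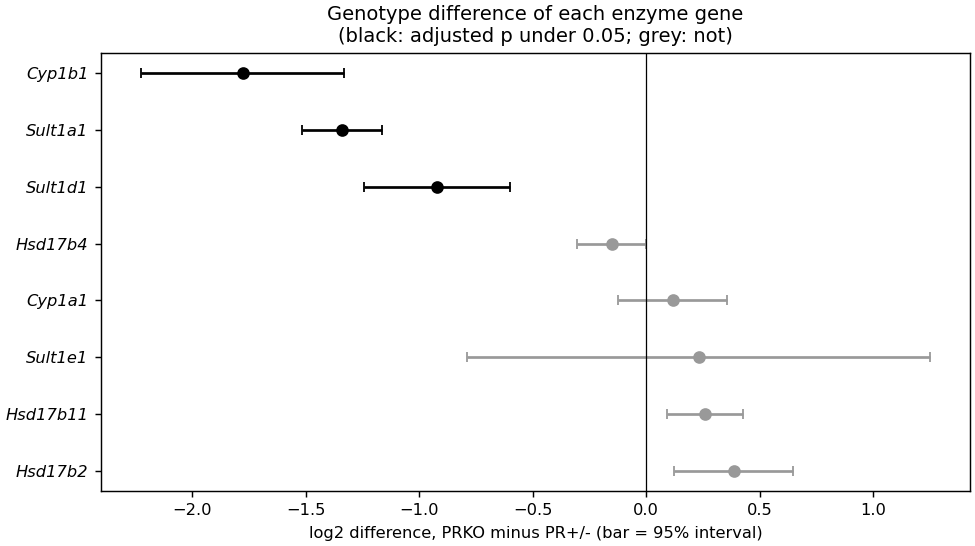
Log2 difference, PRKO minus PR+/-, of the 8 measured enzyme genes with its 95% interval (limma, n = 5 each); black marks genes with an adjusted p under 0.05 and grey the others. Cyp1b1, Sult1a1 and Sult1d1 lie left of 0 at -1.78, -1.34 and -0.92, and the interval of Sult1e1 is the widest, from -0.79 to 1.25.

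Promoters of 6 of the 8 measured genes, taken from RefSeq's GRCm38.p6 table, were searched. Those of Hsd17b2 and Hsd17b4 were not searched. The 250 bases before the start are shown for the 3 genes that fell, since they moved together, and for Cyp1a1 as the relative that did not pass. Capitals mark motif matches on either strand: the xenobiotic response element core GCGTG, bound by the aryl hydrocarbon receptor complex, and the letters AGAACA, part of the element shared by progesterone and glucocorticoid receptors. Also searched were the full progesterone and glucocorticoid receptor palindrome, GNACA and TGTNC 3 bases apart, which can overlap AGAACA, and the estrogen receptor palindrome, GGTCA and TGACC 3 bases apart.
Cyp1b1: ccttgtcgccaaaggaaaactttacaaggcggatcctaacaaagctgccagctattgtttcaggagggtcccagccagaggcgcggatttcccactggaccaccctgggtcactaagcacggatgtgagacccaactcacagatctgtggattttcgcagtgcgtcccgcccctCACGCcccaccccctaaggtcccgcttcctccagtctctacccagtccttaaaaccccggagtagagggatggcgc
Sult1a1: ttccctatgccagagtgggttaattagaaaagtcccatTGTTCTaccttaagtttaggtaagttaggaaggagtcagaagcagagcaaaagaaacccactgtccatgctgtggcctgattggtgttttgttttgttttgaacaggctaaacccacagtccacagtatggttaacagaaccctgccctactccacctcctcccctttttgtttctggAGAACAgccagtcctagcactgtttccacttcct
Sult1d1: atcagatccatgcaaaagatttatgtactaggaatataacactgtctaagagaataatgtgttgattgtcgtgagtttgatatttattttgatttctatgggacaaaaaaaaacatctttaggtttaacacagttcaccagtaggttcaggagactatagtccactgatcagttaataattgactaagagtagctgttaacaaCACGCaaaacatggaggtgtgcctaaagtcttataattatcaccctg
Cyp1a1: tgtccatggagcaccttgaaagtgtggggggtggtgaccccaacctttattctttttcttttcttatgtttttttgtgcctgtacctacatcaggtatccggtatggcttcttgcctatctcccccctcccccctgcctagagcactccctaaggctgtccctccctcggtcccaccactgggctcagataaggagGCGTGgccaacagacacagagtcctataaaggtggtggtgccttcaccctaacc

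These windows are chr17:79715062-79715311, chr7:126676419-126676668 and chr5:87569007-87569256 on the minus strand and chr9:57697363-57697612 on the plus strand, printed 5′ to 3′. Cyp1b1 held GCGTG on the opposite strand 76 to 72 bases before its start, Sult1d1 likewise at 47 to 43 bases, and Cyp1a1 on its own strand at 54 to 50 bases. Sult1a1 held AGAACA at 34 to 29 bases before its start and its reverse complement at 212 to 207 bases. Of the 6 promoters 4 held GCGTG, 1 held AGAACA and none held either palindrome. Among 32851 promoters of the table, 28.2% held GCGTG, 16.1% held AGAACA, 0.387% the progesterone and glucocorticoid receptor palindrome and 0.0639% the estrogen receptor palindrome. Matches this frequent describe the letters only.

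The genes lie apart except on chromosome 5, where Sult1d1 stands between Sult1b1 and Sult1e1 in the order of protein-coding genes. Neither of these neighbours passed the test: Sult1b1, another sulfotransferase of phenols, had mean signals of 2.18 in PRKO and 2.23 in PR+/- (log2 difference -0.046), and Sult1e1 is given above. Both Sult1b1 and Sult1e1 lie among the dimmest 30% of genes, where an array understates a change. The difference between these neighbours was not tested. Among the 5 protein-coding neighbours on each side, Cyp1b1 had 3 called of 7 measured, all of which fell. They were Galm, an enzyme of galactose breakdown (-0.68), Qpct, a glutaminyl cyclase (-0.64), and Prkd3, a protein kinase (-0.47). Sult1a1 had 1 of 9, Gdpd3, a phosphodiesterase of lipids (-0.78), while 4.96% of all genes were called. Hsd17b11 had 2 of 9, Sparcl1, a matrix protein (-0.53), and Slc10a6, described with the transporters. Sult1e1 had 1 of 8, which was Sult1d1. By limma, the neighbours of the other members had 0 called: 0 of 8 for Sult1d1, 0 of 10 for Cyp1a1, 0 of 9 for Hsd17b2 and 0 of 9 for Hsd17b4. At an unadjusted p under 0.05, 1 neighbour of Sult1d1 and 1 of Hsd17b4 were higher, and 2 of Cyp1a1 and 1 of Hsd17b2 were lower.

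Other genes of estrogen metabolism mostly did not pass. Of 89 measured genes in 11 groups by role, 86 did not pass, 2 fell and 1 rose, near or below the 3.87% and 1.09% of all genes. Without PRKO replicate 1, 6 fell. At an unadjusted p under 0.05, 12 were lower and 12 higher. Their median log2 difference was 0.0065. Aromatase (Cyp19a1), which makes estrogens, was not analysed here.

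Slc10a6, a carrier that takes sulfated steroids into cells, fell. Its signals were 4.37, 4.05, 4.47, 4.21 and 4.24 in PRKO pools, against 4.89, 4.89, 4.82, 4.96 and 4.98 in PR+/- pools. No PRKO pool reached the lowest PR+/- pool. These values give a log2 difference of -0.64 ± 0.084 (limma adjusted p = 3.50e-04), a 1.56-fold lower signal. The other 16 measured genes of conjugate transport did not pass. At an unadjusted p under 0.05, 5 of the 17 were higher and 2 lower, Slc10a6 included. Among them, the efflux pump genes Abcg2 and Abcc4 had log2 differences of -0.43 and 0.31 (limma adjusted p = 0.0834 and 0.0671).

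In the aryl hydrocarbon receptor axis, 1 of 6 genes fell (1 higher and 1 lower at an unadjusted p under 0.05). Tiparp, a mono-ADP-ribosyltransferase that this receptor induces and that represses it in turn, read 7.46, 7.32, 7.32, 7.47 and 7.39 in PRKO pools and 7.90, 7.71, 7.83, 7.79 and 7.78 in PR+/- pools. These groups were separate, and the log2 difference was -0.41 ± 0.069 (limma adjusted p = 0.00279, 1.33-fold lower). Ahr, the receptor itself, had a log2 difference of 0.18 ± 0.097 (limma adjusted p = 0.301).

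Hsd17b6, which oxidizes androgen metabolites and retinol, rose in a dim range. It read 2.95, 2.58, 2.87, 2.99 and 3.04 in PRKO pools and 2.50, 2.44, 2.55, 2.51 and 2.63 in PR+/- pools. PRKO replicate 2 lay inside the PR+/- range. The log2 difference was 0.36 ± 0.089 (limma adjusted p = 0.0323), and it stayed called in 7 of the 21 alternatives that could test it. Leaving out any array except PRKO replicate 2 or PR+/- replicate 5 ended its call. Hsd17b13, the neighbour of Hsd17b11 on chromosome 5, had a log2 difference of 0.33 (limma adjusted p = 0.111). Of the 5 measured genes in their group, 2 were higher and 0 lower at an unadjusted p under 0.05.

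The remaining groups held no called gene in limma. Among 7 genes of estrogen synthesis and reduction, differences ran from -0.20 to 0.45 (0 higher and 1 lower at an unadjusted p under 0.05). Its highest was that of Hsd17b1, which reduces estrone to estradiol in granulosa cells and read 5.91 in PRKO replicate 3, the pool with the highest Cyp11a1. In PR+/- replicate 4, the other pool high in Cyp11a1, Hsd17b1 read 4.64, against at most 4.53 on the other 8 arrays. The part of ovarian RNA in the Hsd17b1 signal was not tested. Among 10 other sulfotransferases and enzymes of the sulfate donor, differences ran from -0.12 to 0.28 (1 higher and 0 lower). Among 8 arylsulfatases and sulfatase activators all lay below 0, from -0.24 to -0.0013 (0 higher and 2 lower).

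Glucuronidation, which attaches a sugar acid to steroids, showed differences from -0.18 to 0.30 in 9 genes (1 higher and 1 lower at an unadjusted p under 0.05). The 5 measured genes of the methylation group ranged from -0.15 to 0.17 (1 higher and 0 lower). Quinone reduction and glutathione conjugation, which clear oxidized catechol estrogens, ran from -0.44 to 0.20 in 12 genes (1 higher and 4 lower), with Gstp1, a glutathione transferase, at -0.44 (limma adjusted p = 0.0666) and Nqo1, a quinone reductase, at -0.26 (limma adjusted p = 0.0908). The 7 other hydroxylases and electron donors ran from -0.29 to 0.20 (0 higher and 1 lower). Estrogen receptors did not pass either (0 in each direction at an unadjusted p under 0.05): Esr1, the main receptor of the oviduct, averaged 10.06 ± 0.043 in PRKO and 10.01 ± 0.039 in PR+/- (SD, n = 5 each), and Esr2 had a log2 difference of 0.14.

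**Figure D4:**
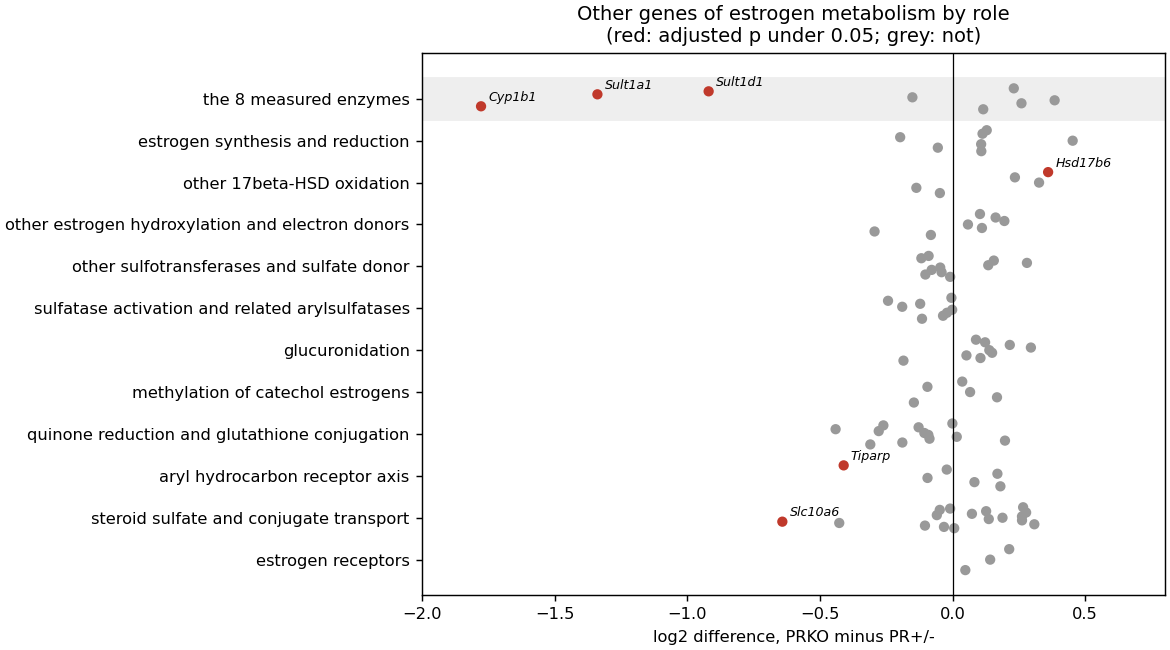
Log2 difference, PRKO minus PR+/-, of the 8 measured enzymes (top, shaded) and of 89 other genes of estrogen metabolism, 1 row per role and 1 point per gene, with genes of adjusted p under 0.05 in red. Outside the top row Slc10a6 and Tiparp lie left of 0 and Hsd17b6 right of it.

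Markers of smooth muscle moved with the 3 enzymes that fell. All 8 measured markers fell (limma), with log2 differences from -1.51 to -0.41, and their summed signal, in log2, was 12.39 to 12.72 in PRKO and 13.22 to 13.37 in PR+/-, without overlap. Of 8 stromal markers 1 fell, Pdgfra, a growth factor receptor of fibroblasts (-0.39), with sums of 12.98 to 13.18 in PRKO and 13.12 to 13.32 in PR+/-. Of 7 endothelial markers 2 fell, Emcn and Pecam1, surface proteins of vessel walls, at -0.53 and -0.27. Their sums were 8.89 to 9.13 in PRKO and 9.11 to 9.23 in PR+/-. The part of these cell types in the enzymes' falls was not tested.

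Genes with a pattern close to that of each enzyme were sought by the root mean square difference between their log2 signals and the enzyme's over the 10 arrays, after each gene was centred on its mean. The search took the enzymes that differed at least 1.5-fold. Closest to Cyp1b1 were Slc7a8, an amino acid transporter, Rgs2, a regulator of G protein signalling, and Des, the muscle filament desmin, at 0.32, 0.33 and 0.33. Closest to Sult1a1 were Penk, the enkephalin precursor, Plpp3, a lipid phosphatase, and Actg2, an actin of visceral muscle, each at 0.12. Closest to Sult1d1 were Myocd, the coactivator of smooth muscle genes, Lgi1, a secreted protein, and Tgfbi, a matrix protein, at 0.19, 0.21 and 0.22. All 9 differ between genotypes in the direction of the enzyme, as closeness on this measure requires.

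**Figure D5:**
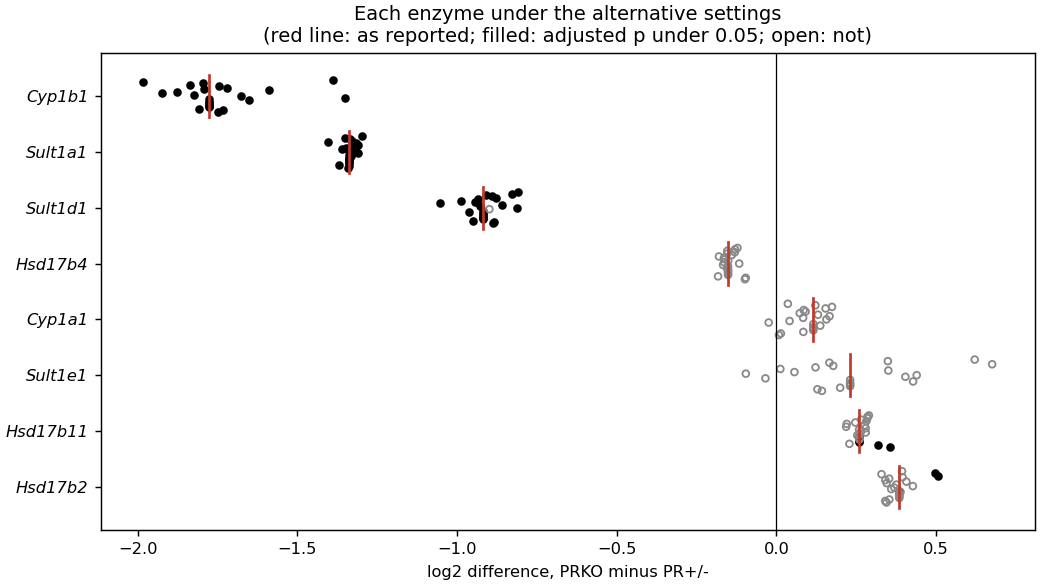
Log2 difference, PRKO minus PR+/-, of each enzyme as reported (red line) and under each alternative setting (points, filled where the adjusted p is under 0.05 and open where it is not). Points of Cyp1b1 run from -1.98 to -1.35 and those of Sult1a1 from -1.40 to -1.30, all filled, while those of Sult1e1 lie on both sides of 0.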

How the data were processed

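The authors' deposited table holds 1 log2 value per probe set and array, 35557 rows and 10 arrays. The log2 scale was inferred from the values. Partek is the software named, per the submitters' processing notes; the normalization is not given in the sources used here, and values were not normalized again, since array medians lay between 5.20 and 5.28. Rows were named through the platform annotation (21789 with 1 symbol, 1621 with several, 12147 with none, and only the first kind used) and 21698 were matched by gene ID to a GRCm38.p6 gene table used for names and gene order. The probe set with the highest mean stood for a gene, which left 19938.

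The genotypes were compared in limma 3.58.1 (R 4.3.3) with genotype as the only term (8 residual and 6.08 prior degrees of freedom) and Benjamini-Hochberg adjustment over all genes. The procedure was tested on simulated data. Each p-value measures only the spread between pools. The labels' replicate numbers were not used: same-numbered pools of the 2 genotypes had correlations of deviations of 0.104, 0.125, -0.0126, 0.129 and 0.159, and 1 of the 5 missed the 0.1 set for pairing. For PRKO replicates 1, 2 and 3 the PR+/- pool with the highest correlation had another number (5, 1 and 4).

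Members, gene lists, marker lists and alternatives were chosen with earlier results of these data known. Genes named are all members, called genes of the estrogen metabolism lists, a few fixed context genes and the 3 genes most like each member that differed at least 1.5-fold. Cyp1a2, Sult1b1, Hsd17b13, the other neighbouring genes, Abcg2, Abcc4, Gstp1, Nqo1, Hsd3b1 and single markers were named after their values were seen. Alternatives were other normalizations, filters on dim genes, other probe set rules, variance models, a replicate block, the interquartile range as a covariate and arrays left out. Leaving out PRKO replicates 1 and 5 was added after the data were seen. Of the other marker lists, 1 of 8 multiciliated and 1 of 6 secretory markers rose, 1 of 5 mesothelial markers fell, and immune (7), adipocyte (5), erythroid (2) and liver (4) markers had 0 called in limma (1, 2, 1 and 0 higher and 0 lower in each at an unadjusted p under 0.05).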

Additional observations from a re-analysis of the deposited data

Results flagged for a closer look

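In 34 groups of 5 arrays, 5 values stood far from the rest of their group; chance flags about 1 group in 20. Sult1e1 in PR+/- replicate 4 read 4.79, against 2.14 to 2.80 on the other PR+/- arrays, and Cyp11a1 in the same pool read 7.04, against 3.05 to 3.92. Hsd17b1 in PRKO replicate 3 read 5.91, against 4.29 to 4.53 on the other PRKO arrays. Sult1a1 in PR+/- replicate 3 read 6.13, against 6.41 to 6.51 on the other PR+/- arrays, and stayed above every PRKO pool. Hsd17b4 in PRKO replicate 1 read 8.63, against 8.77 to 8.82.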

How the results depend on the processing

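Cyp1b1 and Sult1a1 kept their direction and their call in all 23 alternatives run, with log2 differences of -1.98 to -1.35 and -1.40 to -1.30, and Sult1d1 in 22 (-1.05 to -0.81 over all 23); with the interquartile range as a covariate it was -0.90 and not called (limma adjusted p = 0.0567), leaving 2 members that fell. Hsd17b4 was called in none (-0.18 to -0.10). Cyp1a1 and Sult1e1 turned to -0.024 and -0.034 with that covariate, Sult1e1 also to -0.10 without PRKO replicate 3, and neither was called in any. With the replicate block, Hsd17b2 kept its 0.39 and was called (limma adjusted p = 0.0407), as it was at 0.51 without PR+/- replicate 4 and at 0.50 without that array and PRKO replicate 3; the block changed no other member's call. Hsd17b11 was called after quantile normalization (0.35), cyclic loess (0.32), removal of the dimmest 30% or 50% (0.26 in both) and a variance trend (0.26). Each of these 8 settings called 1 member as rising, against 0 as reported. Removing the dimmest 30% left 6 of the 8 members and 50% left 5. Leaving out 1 array at a time gave log2 differences of -1.93 to -1.59 for Cyp1b1, -1.40 to -1.31 for Sult1a1, -1.05 to -0.81 for Sult1d1, -0.10 to 0.68 for Sult1e1, 0.04 to 0.17 for Cyp1a1, 0.33 to 0.51 for Hsd17b2, -0.18 to -0.12 for Hsd17b4 and 0.22 to 0.29 for Hsd17b11, 3 members that fell and 0 to 1 that rose. Over all genes it gave 497 to 882 that fell and 84 to 330 that rose, against 771 and 217, each fit with fewer samples. The count that fell moved by over 1.5 times without PR+/- replicates 1 and 2 (497 and 505), and the count that rose without PRKO replicate 3 or 4 (136 and 330) or PR+/- replicates 1 to 4 (84, 93, 126 and 132). Those that fell were 264 with the covariate and 489 without PR+/- replicate 4 and PRKO replicate 3, and those that rose 58 and 73, 142 with median centring, 133 with every row tested and 141 without PRKO replicates 1 and 5. Of the 89 other estrogen metabolism genes, 2 to 6 fell and 0 to 2 rose when 1 array was left out (6 fell without PRKO replicate 1; 2 rose without PRKO replicate 2 or 4, and 0 without PRKO replicate 1 or 3 or PR+/- replicates 1 to 4). With a filter at 30% or 50% or a variance trend, 4 fell; after quantile or cyclic loess normalization or with a variance trend, 2 rose; with every row tested or without PR+/- replicate 4 and PRKO replicate 3, 0 rose. Slc10a6 was called in 22 of the 22 alternatives that held it and Tiparp in 23 of 23. Unless stated, the cause of these changes was not tested.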
